A study of Homo sapiens with 12 samples.

Results

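The H3K27ac landscape was examined around 8 genes of the EGFR signaling family, 3 receptors (EGFR, ERBB2 and ERBB3) and 5 ligands (AREG, EREG, HBEGF, TGFA and BTC), out of 20020 protein-coding genes. The genes were chosen by name. Peaks were assigned to a gene when they lay within 1 kb (promoter) or within 50 kb of any of its annotated GENCODE transcript starts on hg38. Of 38598 merged peak regions in the series, 49 lay within 50 kb of a member. H3K27ac, acetylation of histone H3 at lysine 27, marks active promoters and enhancers and was profiled by CUT&RUN, in which an antibody tethers a nuclease that cuts out the marked chromatin for sequencing. The cells were HCT116, an established human colorectal carcinoma line with active MAPK signaling. They were untreated, exposed for 24 hours to 1 μM cobimetinib, an inhibitor of the MAPK kinase MEK1, or exposed for 24 hours to 100 ng/ml TNFα, a cytokine that signals through NF-κB and AP1. Each condition had 2 H3K27ac libraries. The study's methods name treatment replicates but do not state that these came from separate cultures, so p-values measure only the spread between these samples. The 6 IgG libraries are not analysed here.

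EGFR, ERBB2 and ERBB3 are cell surface receptors that pair with each other and pass growth signals to the RAS, RAF, MEK and ERK kinases and to PI3K. ERBB2 has no known ligand of its own and ERBB3 has a weak kinase, so both act mainly within pairs. The ligands are made as membrane-bound precursors that the proteases ADAM10 and ADAM17 release. In the colon, these ligands drive epithelial growth and repair, and AREG and EREG are often expressed together from neighboring genes in colorectal tumors.

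Peak lists carry the authors' peak score but no read counts, so sequencing depth is unknown. The main comparisons between libraries therefore used ranks within a library (rank 1 has the highest score). The 6 lists held from 69813 to 124771 peaks, of which 84 to 115 lay within 50 kb of a member. Untreated replicate 2 stood apart in peak shape: the median width of its 20000 highest peaks was 380 bp, against 922 to 1265.5 bp in the other 5 libraries, and peaks near members followed (258 bp against 377.5 to 605.5 bp), so results against untreated cells are also given without it where that moved them. Of 7 epithelial marker genes, 5 (EPCAM, CDH1, KRT8, KRT18 and KRT19) had a promoter peak in all 6 libraries and CDX1 and VIL1 had none in any. The summed promoter score of this list ran from 285 to 718. Of 8 markers of blood, endothelial and fibroblast cells, COL1A1 and COL3A1 had a promoter peak in all 6 libraries, CDH5 and DCN had none, and the summed score ran from 165 to 410. Summed scores rise with depth and were not used to compare libraries or cell types. In a bulk assay, a larger share of cells with the mark and more of the mark per cell cannot be told apart.

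All 8 members had a promoter peak in all 6 libraries, as did 51.9% of protein-coding genes. Within 50 kb, EGFR had the most peaks per library (18 to 28) and BTC the fewest (2 to 8). Levels at the promoters differed widely. In its own list the best ERBB2 promoter peak lay within the top 0.662% to 4.94% of peaks and that of EREG within 1.30% to 5.13%, while that of HBEGF lay between 22.8% and 47.8%. The promoter rank among 14928 genes with a peak in any library placed ERBB2 first (median rank 608 over the 6 libraries), followed by EREG (1694), BTC (5021), TGFA (4908), EGFR (6537), ERBB3 (6917), AREG (9175) and HBEGF (11179), ordered by the mean log2 rank. Neighbors in this order were not separated in every library. ERBB2 ranked above EREG in 5 of 6 libraries and EREG above BTC in 5, whereas BTC, TGFA and EGFR each ranked above the next gene in 4. ERBB3 stood above AREG in 5 libraries and AREG above HBEGF in 5. The ERBB2 value came from a region at its first annotated start that also covers the start of PGAP3. The region at the canonical ERBB2 start was weaker.

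**Figure D1:**
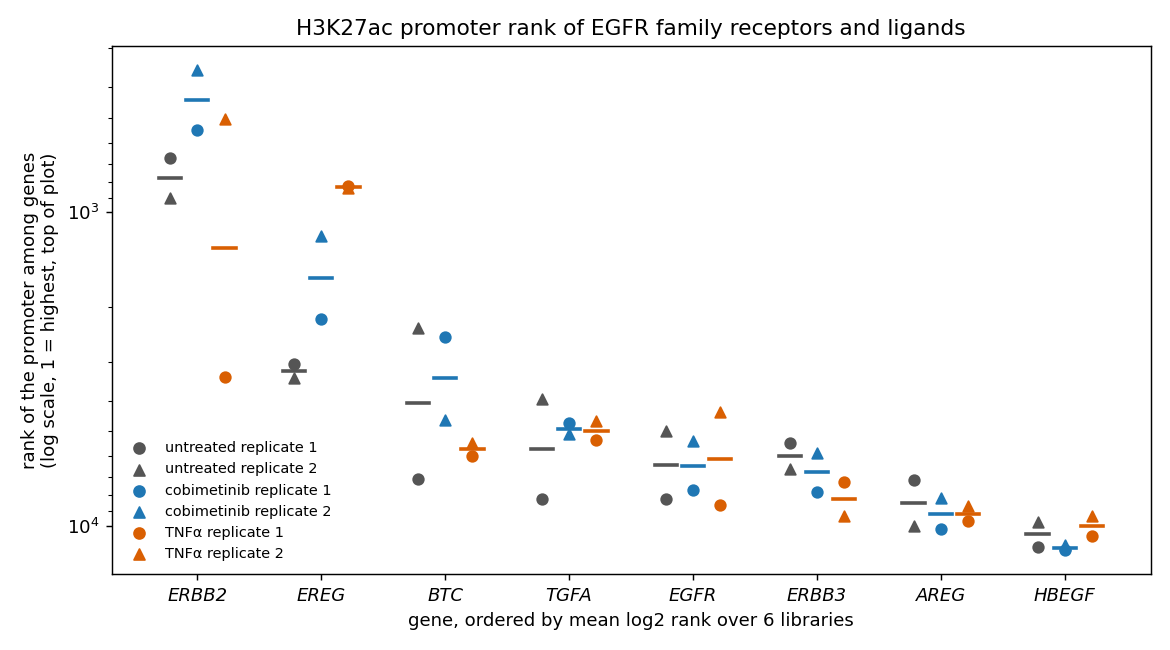
Rank of each gene's promoter (best peak within 1 kb of a start) among 14928 genes, on a log axis with rank 1 at the top; points are single libraries and bars are the geometric mean of 2 replicates. ERBB2 (by a peak shared with PGAP3) and EREG sit highest, and AREG and HBEGF sit lowest. EREG is the only member whose 2 TNFα libraries (823 and 837) lie above all 4 others.

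The EREG promoter gave the clearest ordering by condition among the members. EREG encodes epiregulin, a ligand of EGFR and ERBB4. Its promoter ranked 3054 and 3369 in untreated cells, 2193 and 1194 with cobimetinib, and 823 and 837 with TNFα. Both TNFα libraries were thus above both untreated libraries, and both cobimetinib libraries lay between them. The difference between TNFα and untreated cells was 1.95 ± 0.87 (SE) on the −log2 rank scale, where 1 unit is a doubling of the position in the list (limma, adjusted p = 0.953). It did not pass the adjusted threshold of 0.05. Across all genes 3.8% had an unadjusted p under 0.05 in this comparison, and EREG was the 1 member of 8 that did. The peak width showed no such order, at 1448 and 747 bp untreated, 1184 and 1306 bp with cobimetinib and 1230 and 1546 bp with TNFα.

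The promoters of EREG and of AREG, the neighboring ligand gene with a weak promoter peak, are shown because they are the start points of the locus in which the regions below lie. RefSeq promoters (GRCh38.p14, 250 bases before to 50 after the start) matched 7 of the 8 members with 9 sequences, and ERBB3 was not matched. Capitals mark the words TGACTCA or TGAGTCA (AP1), TGACGTCA (the cyclic AMP response element), GGGCGG (the GC box) and TATAAA, each searched on both strands. EREG lies at chr4:74364895-74365194 and AREG at chr4:74444886-74445185, both on the plus strand.
EREG promoter: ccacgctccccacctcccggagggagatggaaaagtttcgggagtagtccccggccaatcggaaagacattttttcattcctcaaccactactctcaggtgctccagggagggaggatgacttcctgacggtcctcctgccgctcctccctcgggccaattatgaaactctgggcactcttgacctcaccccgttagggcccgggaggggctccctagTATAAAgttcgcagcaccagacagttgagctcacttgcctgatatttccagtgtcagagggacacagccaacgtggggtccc
AREG promoter: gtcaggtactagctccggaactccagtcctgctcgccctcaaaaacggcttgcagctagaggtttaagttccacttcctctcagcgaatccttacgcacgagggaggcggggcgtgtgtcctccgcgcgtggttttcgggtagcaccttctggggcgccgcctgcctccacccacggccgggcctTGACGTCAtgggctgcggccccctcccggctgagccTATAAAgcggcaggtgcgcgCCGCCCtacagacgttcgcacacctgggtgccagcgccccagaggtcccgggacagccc
Both promoters held 1 TATAAA word, which 11.5% of the 35116 promoters in the table contain. The AREG promoter also held 1 TGACGTCA (in 1.85% of promoters) and 1 GGGCGG (in 45.0%), and neither held an AP1 word (in 4.95%). No words overlapped. GC content was 57.7% for EREG and 66.3% for AREG, against a median of 58.7% over the table. These are matches of letters, not evidence of binding.

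AREG encodes amphiregulin, an EGFR ligand. Its promoter was far weaker than that of EREG, with ranks of 7166 and 10006 untreated, 10246 and 8186 with cobimetinib, and 9693 and 8658 with TNFα. The 3 conditions overlapped completely, and the difference between TNFα and cobimetinib was 0.00 ± 0.28 (SE; adjusted p = 1.00). The marked difference at this locus lay instead between the genes.

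In the intergenic interval between EREG and AREG, 1 region at chr4:74416663-74419053 (2391 bp) had the largest TNFα minus cobimetinib difference of the 49 regions. It lies 26083 bp before the AREG start and 34240 bp beyond the nearest annotated EREG start. Among all 38598 regions it ranked 496 and 908 in untreated cells, 9083 and 8624 with cobimetinib, and 1280 and 81 with TNFα. Both cobimetinib libraries were far below the other 4, while the TNFα and untreated libraries overlapped. The authors' scores, which rise with depth, were 419 and 110 untreated, 106 and 106 with cobimetinib, and 326 and 588 with TNFα. Best-peak widths overlapped (1459 and 946 bp, 873 and 1295 bp, 2391 and 1178 bp in the same order). The cobimetinib minus untreated difference was −3.72 ± 0.75 (SE; limma, adjusted p = 0.593). The TNFα minus cobimetinib difference was 4.78 ± 1.31 (SE; adjusted p = 0.181, or 0.0692 when only regions held by 2 or more libraries were tested). The TNFα minus untreated difference was 1.06 ± 1.5 (SE; adjusted p = 0.814).

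The size of these differences depended on single libraries. Without TNFα replicate 2 the TNFα minus cobimetinib difference was 2.79 (adjusted p = 0.0293), and without TNFα replicate 1 it was 6.77 (adjusted p = 3.82e-07), each assuming that the lone library varied like the rest. Without cobimetinib replicate 1 or 2 it was 4.74 and 4.82 and did not pass the threshold (adjusted p = 0.277 and 0.251). With all 6 libraries in 1 fit the adjusted p was 0.0423. Against untreated cells the TNFα difference was 3.05 without TNFα replicate 1 and −0.93 without TNFα replicate 2. The cobimetinib minus untreated difference was −4.16 without untreated replicate 2 (adjusted p = 0.00402) and −3.28 without untreated replicate 1 (adjusted p = 0.0582). Without cobimetinib replicate 1 or 2 it was −3.68 and −3.76 and far from the threshold (adjusted p = 0.841 and 0.871). With replicates as a block the adjusted p was 0.0206, and with all 6 libraries in 1 fit it was 0.253. The call thus changed with the library left out and with the fit.

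The part of this region around its AP1 word is shown, because MAPK signaling and TNFα are both known to act through AP1. AP1 words were TGACTCA or TGAGTCA, and the NF-κB motif was searched by its consensus on both strands. The window is chr4:74418360-74418559 (hg38, plus strand), with the AP1 word in capitals.
EREG-AREG intergenic window: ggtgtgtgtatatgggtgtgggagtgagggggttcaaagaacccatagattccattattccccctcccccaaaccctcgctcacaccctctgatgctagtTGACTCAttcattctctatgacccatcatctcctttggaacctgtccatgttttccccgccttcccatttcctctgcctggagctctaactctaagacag
The whole region held 1 AP1 word and no NF-κB match. Among 1896 regions within 10% of its width, 48.9% held an AP1 word and 33.4% an NF-κB match, so the presence of 1 AP1 word was common at this width.

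Some other regions of the AREG and EREG locus also ranked higher with TNFα than with cobimetinib. The 10 regions within 50 kb of either gene include the intergenic region above. Of these 10, 6 ranked higher in both TNFα libraries than in both cobimetinib libraries, 0 ranked lower and 4 overlapped, with a median difference of 0.91. The 4 that overlapped include the regions at the EREG and AREG starts. Over all regions, 20.4% ranked higher and 21.7% lower without overlap, and the median difference was 0.00. A region just before the EREG start (1741 bp away) ranked 24775 and 22176 with cobimetinib and 8148 and 7998 with TNFα, and 19651 and 7990 in untreated cells. In the EREG gene body, a region 6708 bp from a start ranked 10061 and 7514 untreated, 13832 and 6219 with cobimetinib, and 3542 and 2812 with TNFα. Both TNFα libraries were above the other 4 there. A region 11833 bp from the nearest EREG start ranked 10415 and 3400 untreated, 21821 and 20824 with cobimetinib, and 10553 and 7504 with TNFα, so that cobimetinib was below both other conditions. In the last of these, 25448 bp from an EREG start, TNFα stood apart, with ranks of 4099 and 12340 against 17944 to 26744 in the other 4 libraries.

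Of the other 5 regions of the locus, the merged region at the EREG start had the largest TNFα minus untreated difference of the 10. It ranked 4382 and 6509 untreated, 3228 and 1737 with cobimetinib, and 1510 and 1842 with TNFα (TNFα minus untreated 1.68 ± 0.58, SE; adjusted p = 0.660), so that TNFα was above untreated cells and overlapped with cobimetinib. A region 43289 bp from the nearest EREG start was closer to another gene, EPGN, at 10548 bp. It ranked 4472 and 7990 untreated, 5768 and 4272 with cobimetinib, and 4063 and 3491 with TNFα. Both TNFα libraries were above the other 4 by a small margin (TNFα minus cobimetinib 0.40). The region at the AREG start ranked 11376 and 25092, 21286 and 14734, and 19970 and 18154 in the same order, with all groups overlapping. A pair of weak regions 2331 and 7158 bp from the AREG start ranked between 15173 and 33464, with TNFα and cobimetinib overlapping in both. Covered length within 50 kb of EREG starts was 7936 and 9322 bp with cobimetinib and 11468 and 11002 bp with TNFα. In untreated cells it was 12152 and 7291 bp, a range that spans both treatments. Around AREG the lengths were 5717 and 6082 bp with cobimetinib, 8372 and 8151 bp with TNFα, and 7907 and 4916 bp untreated. Against untreated cells, 5 of the 10 regions ranked higher with TNFα and 0 lower, against 17.9% and 9.83% of all regions. With cobimetinib 1 ranked higher and 3 lower than untreated, against 20.3% and 11.8% of all regions. These comparisons share libraries and are not independent.

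**Figure D2:**
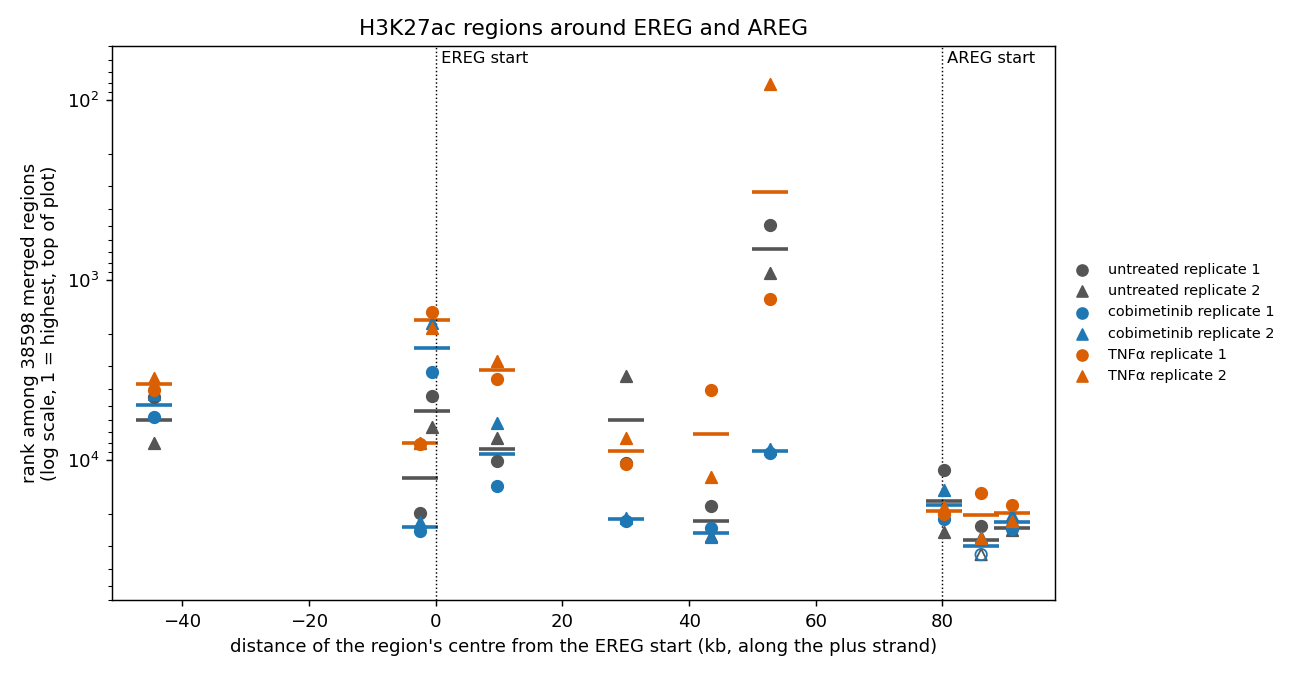
Rank of each of the 10 regions within 50 kb of EREG or AREG among all 38598 merged regions (log axis, rank 1 at the top) against the distance of its centre from the EREG start; points are single libraries (open where no peak overlapped), short bars are geometric means of 2 replicates, and dotted lines are the gene starts. The intergenic region stands highest, with TNFα and untreated libraries between rank 81 and rank 1280 and both cobimetinib libraries at 8624 and 9083.

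EGFR encodes the receptor that binds all 5 of these ligands. Its promoter value took the best peak at any of 12 annotated starts, which include internal starts, and ranked 8218 and 4994 untreated, 7694 and 5380 with cobimetinib, and 8597 and 4346 with TNFα. The conditions overlapped (TNFα minus cobimetinib 0.07 ± 0.48, SE; adjusted p = 0.982). The region at the canonical start ranked 13553 and 24318 untreated, 13832 and 8624 with cobimetinib, and 17088 and 16222 with TNFα, and the region at an internal start ranked 20114 and 10606, 16420 and 12265, and 16595 and 8229. Both ranked below the 3 strongest intronic regions.

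The highest ranked EGFR regions lay in introns. The highest, at chr7:55063781-55066850, ranked 402 and 2812 untreated, 2058 and 980 with cobimetinib, and 874 and 538 with TNFα. A second, at chr7:55072885-55075502 (2618 bp, 34221 bp from the nearest start), ranked 1132 and 1332 untreated, 4922 and 3735 with cobimetinib, and 1102 and 1120 with TNFα. Here both cobimetinib libraries were below all 4 others. Its widths overlapped, at 2019 and 1620 bp untreated, 2162 and 1958 bp with cobimetinib and 2251 and 2091 bp with TNFα. The difference between TNFα and cobimetinib was 1.95 ± 0.48 (SE; adjusted p = 0.159), and cobimetinib minus untreated was −1.80 ± 0.73 (SE; adjusted p = 0.593). Neither passed the adjusted threshold.

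A window of this region is shown around its only AP1 word (capitals), at chr7:55074108-55074307 (hg38, plus strand).
EGFR intron, lower with cobimetinib: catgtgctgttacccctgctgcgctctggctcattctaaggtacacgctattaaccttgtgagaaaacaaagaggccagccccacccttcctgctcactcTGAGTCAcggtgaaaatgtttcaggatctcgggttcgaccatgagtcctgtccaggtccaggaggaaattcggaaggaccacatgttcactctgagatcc
The region held 1 AP1 word and no NF-κB match, and 55.4% of regions of like width held an AP1 word. Of the 9 EGFR regions, 4 ranked higher in both TNFα libraries than in both cobimetinib libraries, 3 lower and 2 overlapped (20.4% higher and 21.7% lower over all regions).

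**Figure D3:**
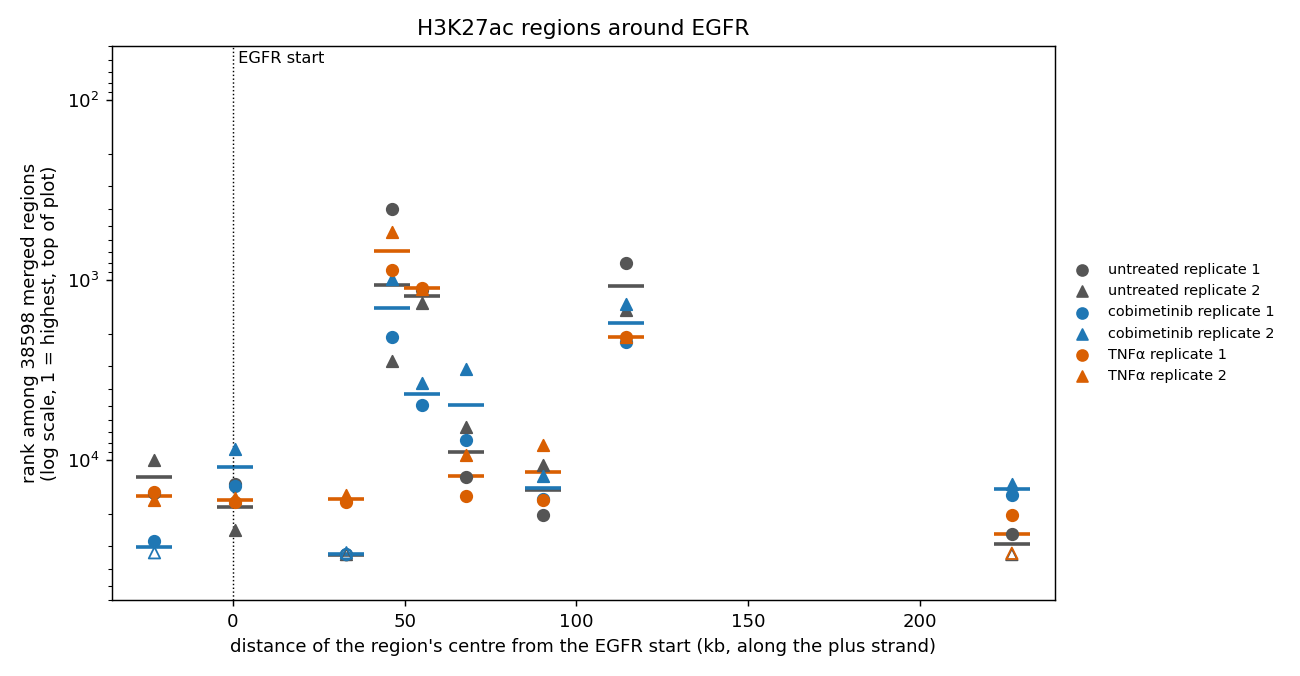
Rank of each of the 9 regions within 50 kb of an EGFR start among all 38598 merged regions (log axis, rank 1 at the top) against the distance of its centre from the canonical EGFR start; points are single libraries (open where no peak overlapped) and short bars are geometric means of 2 replicates. The strongest regions lie inside the gene, and the one at chr7:55072885-55075502 has both cobimetinib libraries (4922 and 3735) below the other 4 (1102 to 1332).

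ERBB2 encodes the receptor whose gene is amplified in some breast and gastric tumors. Its promoter ranked 670 and 900 untreated, 548 and 352 with cobimetinib, and 3354 and 503 with TNFα, so 1 TNFα library lay within the range of the other 4 and 1 below it. The difference between TNFα and cobimetinib was −1.57 ± 0.96 (SE; adjusted p = 0.557). This value came from the region at the first annotated ERBB2 start, chr17:39687295-39688812, which also covers the start of PGAP3, and the marks of these genes cannot be told apart there. As a region it ranked 902 and 1810, 707 and 508, and 5726 and 1208 in the same order, both TNFα libraries below both cobimetinib libraries. The canonical ERBB2 start lay in a weaker region, ranked 9292 and 27610 untreated, 14052 and 11516 with cobimetinib, and 17088 and 23012 with TNFα. One more region within 1 kb of an ERBB2 start had a peak in untreated replicate 2 alone. By root mean square difference of log2 promoter rank over 6 libraries, the genes most like ERBB2 were PGAP3 (0.00, the shared peak), ITGB1 (0.61) and RBBP5 (0.61), against a median of 3.41 over all genes. Those most like EREG were UBAP1 (0.30), NFYC (0.31) and CANX (0.41), against a median of 2.38.

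Near ERBB2, several named regions belong to neighboring genes. The region at the start of GRB7, which encodes a receptor adaptor, ranked 3456 and 8478 untreated, 1242 and 1360 with cobimetinib, and 3542 and 4273 with TNFα (cobimetinib minus untreated 2.06 ± 0.79, SE; adjusted p = 0.593). Both cobimetinib libraries were above the other 4. A region in STARD3, 970 bp from the start of TCAP, ranked 7802 and 4424 untreated, 14804 and 19035 with cobimetinib, and 20596 and 24702 with TNFα (TNFα minus untreated −1.94 ± 0.61, SE; adjusted p = 0.660). Both treatments were below untreated cells there. Of 8 ERBB2 regions, 1 ranked higher in both TNFα libraries than in both cobimetinib libraries, 4 lower and 3 overlapped, against 20.4% higher and 21.7% lower of all regions.

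ERBB3 encodes the receptor for neuregulins. Its promoter ranked 5456 and 6596 untreated, 7782 and 5871 with cobimetinib, and 7238 and 9280 with TNFα, with overlap between TNFα and cobimetinib (difference −0.28 ± 0.40, SE; adjusted p = 0.818). The region at the start ranked 8276 and 18020, 14052 and 9585, and 13186 and 20040 in the same order, again overlapping. Of 8 ERBB3 regions, 3 ranked higher with TNFα than with cobimetinib, 3 lower and 2 overlapped (20.4% higher and 21.7% lower over all regions). The highest ranked region there, at RPL41, a ribosomal protein gene, ranked 1326 and 278 untreated, 346 and 424 with cobimetinib, and 1764 and 1178 with TNFα. Both TNFα libraries were below both cobimetinib libraries (difference −1.91 ± 0.60 SE, limma, adjusted p = 0.2135).

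Among the other ligands, TGFA encodes transforming growth factor alpha. Its promoter ranked 8218 and 3942 untreated, 4700 and 5117 with cobimetinib, and 5326 and 4647 with TNFα, with all conditions overlapping. The region at its start ranked 13553 and 7990, 7404 and 8142, and 9246 and 8787 in the same order. Both TNFα libraries were slightly below both cobimetinib libraries there (TNFα minus cobimetinib −0.21 ± 0.43 SE, limma, adjusted p = 0.939). An intergenic region beyond the end of TGFA, at chr2:70431957-70432764 (32969 bp from the nearest start), had no peak in the untreated and cobimetinib libraries and ranked 21130 and 15916 with TNFα. It entered the region set only through TNFα replicate 2, so the way the set was built favored the direction of its difference. The difference from cobimetinib was 0.85 ± 0.21 (SE; adjusted p = 0.159). With 1 library left out, the difference was 1.055 and 0.646 without TNFα replicate 1 or 2, and 0.834 and 0.867 without cobimetinib replicate 1 or 2. With all 6 libraries in 1 limma fit the adjusted p was 0.485. Regions without a peak were tied at the last rank, which compresses differences for weak regions. It held neither an AP1 word nor an NF-κB match. Of 6 TGFA regions, 1 ranked higher with TNFα than with cobimetinib, 1 lower and 4 overlapped (20.4% higher and 21.7% lower over all regions).

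BTC encodes betacellulin. Its promoter ranked 7078 and 2346 untreated, 2504 and 4590 with cobimetinib, and 5981 and 5452 with TNFα. Both TNFα libraries were below both cobimetinib libraries (difference −0.75 ± 0.56, SE; adjusted p = 0.639), while the untreated libraries spanned the range. The regions at its 2 starts ranked 11232 and 4424, 3722 and 7244, and 10553 and 11730 at one, and 18149 and 10606, 7286 and 7830, and 10928 and 10358 at the other, and TNFα was below cobimetinib at both. Of 3 BTC regions, 1 ranked higher with TNFα than with cobimetinib and 2 lower (20.4% higher and 21.7% lower over all regions).

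HBEGF encodes heparin-binding EGF-like growth factor. No merged region lay within 1 kb of its starts, because its promoter peaks were outside the 20000 highest of every library. These peaks ranked 11666 and 9714 among genes untreated, 11974 and 11550 with cobimetinib, and 10808 and 9280 with TNFα. TNFα was above cobimetinib in both libraries, but by 0.23 ± 0.18 (SE; adjusted p = 0.653). The region 35642 bp from its starts lies in an intron of PFDN1 and ranked 24060 in untreated replicate 1, had no peak in untreated replicate 2, and ranked 17608 and 14734 with cobimetinib and 10293 and 4158 with TNFα (TNFα minus untreated 2.12 ± 0.70, SE; adjusted p = 0.660). Of 5 HBEGF regions, 2 ranked higher with TNFα than with cobimetinib, 1 lower and 2 overlapped (20.4% higher and 21.7% lower over all regions).

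Over all 49 regions, 18 were among the 20000 highest peaks of all 6 libraries (36.7%, against 20.6% of all regions), and 6 were held by 1 library. Member regions were wider than the rest, with a median of 1518 bp against 937 bp. By GENCODE, 19 overlapped an exon of a protein-coding gene, 13 lay in introns only and 17 were intergenic. The nearest protein-coding start belonged to a member for 31 regions and to another gene for 18, so proximity does not assign a region to a member. An AP1 word was found in 24 of the 49 regions (49.0%), where regions of like width held one in 43.4% at the median, and an NF-κB match in 9 (18.4%, against 24.0% at the median for regions of like width). AP1 words lay in 10 of the 18 regions that ranked higher in both TNFα libraries than with cobimetinib, in 3 of the 14 that ranked lower and in 11 of the 17 that overlapped. The matching shares over all regions were not computed. These groups were not matched for width or distance from gene starts, so the counts do not tie AP1 words to a direction.

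Between TNFα and cobimetinib, 18 of the 49 regions ranked higher in both TNFα libraries and 14 lower, against 20.4% and 21.7% of all regions. The direction differed by position. Of the 11 regions within 1 kb of a member's start, 0 ranked higher in both TNFα libraries and 6 lower (all promoter regions 16.2% and 28.0%). Of the 29 regions more than 1 kb from any protein-coding start, 16 ranked higher and 4 lower (all such regions 22.4% and 18.7%). The 24 ligand regions had a median difference of 0.45, that of the 10 AREG and EREG regions being 0.91 and that of the 14 regions of HBEGF, TGFA and BTC −0.19, and the 25 receptor regions had one of −0.32, against 0.00 over all regions. These shares describe regions, which are not independent replicates. Some regions entered the set only through the libraries in which they rank high, which favors a call in that direction.

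**Figure D4:**
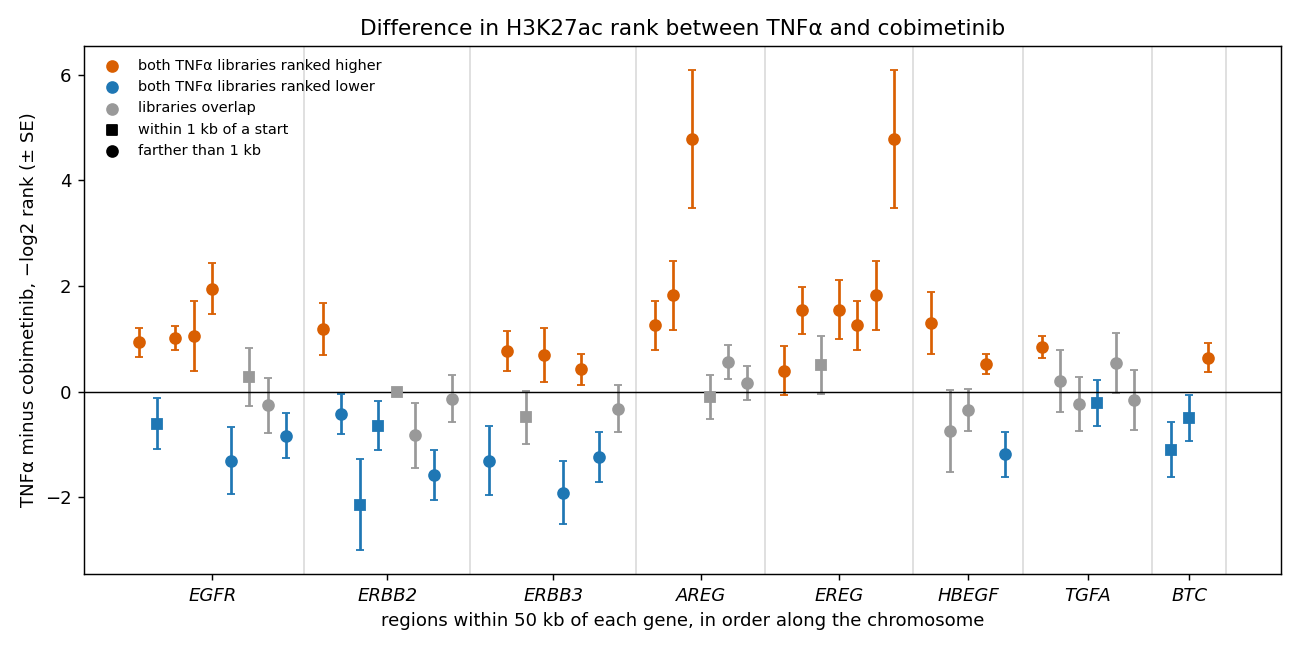
TNFα minus cobimetinib difference in −log2 rank of the 49 regions (positive is higher with TNFα), with the limma standard error from 2 libraries against 2, grouped by gene; the 3 regions near both AREG and EREG are drawn under each, squares lie within 1 kb of a start and color gives whether the libraries overlap. Around AREG and EREG the regions without overlap all lie above 0, up to 4.78.

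No region near a member passed an adjusted p of 0.05 in limma, in any of the 3 comparisons, and neither did any other region of the 38598 (0.0% in each), so that the count of 0 says nothing particular about these genes. Leaving out TNFα replicate 1 gave 4 calls near members between TNFα and cobimetinib (3576 over all regions), and leaving out TNFα replicate 2 gave 5 (2756). Between cobimetinib and untreated cells, 3 were called without untreated replicate 1 (7763 over all regions) and 1 without untreated replicate 2 (1345). At an unadjusted p under 0.05, TNFα and cobimetinib differed at 14 of 49 member regions (10 higher and 4 lower with TNFα), against 17.0% of all regions. Between cobimetinib and untreated cells this held for 3 of 49 (3.63% of all), and between TNFα and untreated cells for 5 of 49 (2.93%). Cobimetinib ranked higher than untreated without overlap at 9 regions and lower at 9 (20.3% and 11.8% of all regions), and TNFα ranked higher than untreated at 14 and lower at 5 (17.9% and 9.83%). Without untreated replicate 2, 32.65% ranked higher and 38.78% lower with cobimetinib (25.93% and 30.45% of all regions). With TNFα, 38.78% ranked higher and 36.73% lower (23.74% and 30.75%), shares that a single remaining library widens by construction. For promoters, 23 of 14928 genes (0.154%) passed the adjusted threshold between TNFα and cobimetinib and 0 of 8 members did, and no gene passed it in either comparison with untreated cells (0.0%). Unadjusted p-values under 0.05 were reached by 0 of 8 members between TNFα and cobimetinib (11.8% of genes) and by 0 of 8 between cobimetinib and untreated cells (5.73%). A value compared between 2 and 2 libraries by an exact permutation test cannot go below p = 0.333.

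The other genes of the pathway were listed by name (23 genes: receptor, ligand, protease, adaptor and kinase genes from ERBB4 to MAPK3). A promoter peak was present in all 6 libraries for 18 of them, and EPGN, which encodes the ligand epigen, had none in any, leaving 22 to test. After adjustment 0 of the 22 promoters differed in any comparison by limma. At an unadjusted p under 0.05, NRAS, which encodes a RAS protein, ranked higher with TNFα than with cobimetinib, at 423 and 495 against 3287 and 1868 (difference 2.44, adjusted p = 0.230). It ranked 2139 and 4142 in untreated cells, so both TNFα libraries stood above the other 4. GRB2, the adaptor that links receptors to RAS activation, ranked lower with TNFα, at 9343 and 9863 against 4765 and 4590 (adjusted p = 0.337), and PTPN11, a phosphatase of the pathway, at 4122 and 2486 against 1369 and 916 (adjusted p = 0.42). The median difference over the list was −0.05, against 0.01 over all promoters. EGF itself, the founding ligand, had a promoter peak in untreated replicate 2 alone.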

How the data were processed

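H3K27ac CUT&RUN peak lists of 6 HCT116 libraries were analysed. Per the study's methods, the authors trimmed reads with BBDuk, aligned them to hg38 with BWA 0.7.15, filtered them with samtools and called peaks in each library with MACS2 2.1.1 without an IgG background. Paired-end and single-end calls were merged with bedtools, and the higher score was kept. The deposited value is this score, a whole number of at least 20 that rises with sequencing depth. Depth per sample is therefore unknown, and the authors' count-based test with DESeq2 was not run here.

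Merged regions were built from the top 20000 peaks per library, joining peaks up to 100 bp apart (bedtools 2.31.1). Each region took the best score of any overlapping peak, ranked within the library with ties averaged and regions without a peak tied last. Promoters took the best peak within 1 kb of any GENCODE 44 start. Values of −log2 rank were fitted over all regions, or all genes with a peak, in the libraries of the 2 groups compared (limma 3.58.1 in R 4.3.3, trended, two-sided), with Benjamini-Hochberg adjustment over all features. Groups were called non-overlapping only where both higher libraries had a peak. The fit was tested on simulated data.

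The members, gene lists and rules were chosen with earlier results of these data known. Regions named are those within 1 kb of a member's start and the 3 with the smallest p in each comparison. Other regions of the AREG, EREG and EGFR loci, and those at RPL41, were named after their values were seen. One region that the rule names is not reported here.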

Additional observations from a re-analysis of the deposited data

How the results depend on the processing

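The replicate numbers share only a number, since the labels give no pairing and deviations of same-numbered libraries correlated at 0.05 to 0.12 over regions and −0.04 to 0.12 over genes. With a replicate block, the member regions called were 1 between cobimetinib and untreated cells, the EREG-AREG intergenic region (214 of all 38598 regions), 0 between TNFα and cobimetinib (145 of all) and 0 between TNFα and untreated cells (0 of all). No promoter of a member was called under any alternative. With both libraries of each group kept, promoter calls over all genes were also few. Between TNFα and cobimetinib they were 104 of 15932 with a 2 kb window and 0 of 14928 with a replicate block. A replicate block gave 3 between cobimetinib and untreated cells and 7 between TNFα and untreated cells. Far more genes were called without untreated replicate 1, where 1 library stands for its group, so there the count of 0 members does not sit beside few calls. With all 6 libraries in 1 fit, 1 member region was called between TNFα and cobimetinib (463 of all). With the 40000 highest peaks, 3 of 97 member regions were called between TNFα and cobimetinib (2521 of all 104903) and 1 between cobimetinib and untreated cells (278 of all). Leaving out 1 library gave 0 to 5 called member regions between TNFα and cobimetinib (1691 to 3576 of all 38598), 0 to 3 between cobimetinib and untreated cells (0 to 7763) and 0 to 1 between TNFα and untreated cells (0 to 7325). The causes of these moves were not tested.

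Shares of member regions without overlap also moved, with those of all regions (in parentheses). With the 40000 highest peaks, 23.7% (10.2%) ranked higher and 16.5% (12.04%) lower with TNFα than with cobimetinib, and 9.28% (5.43%) ranked lower with cobimetinib than untreated. Within 20 kb, 3.85% of 26 regions (9.83%) ranked lower with TNFα than untreated. With 1 library left out, 42.9% to 49.0% (27.7% to 30.2%) ranked higher and 32.7% to 40.8% (29.1% to 33.1%) lower with TNFα than with cobimetinib. For cobimetinib against untreated cells these were 28.6% to 44.9% (25.9% to 41.55%) and 22.4% to 38.8% (17.7% to 37.2%), and for TNFα against untreated cells 36.7% to 53.1% (23.7% to 41.15%) and 18.4% to 36.7% (15.6% to 36.1%), ranges that a single remaining library widens by construction.

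Against untreated cells the TNFα difference of the EREG-AREG intergenic region was −0.93 to 3.05 with 1 library left out, negative without TNFα replicate 2, against 1.06 with all. Among the 20000 highest peaks, 5 of 8 members had a promoter peak in every library. The share of all genes at this cutoff was not computed, so this count cannot be called high or low. Of all values recomputed under an alternative, 196 kept their direction and side of the threshold or range, 22 moved, 9 became stronger and 1 reversed. Without read counts, depth cannot be weighed, 2 libraries per group leave the spread of a single region poorly known, and regions without a peak share 1 rank, so weak regions show small differences.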
